A study of Mus musculus with 8 samples.

Results

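The genes of the respiratory chain and of the ATP synthase were examined in region lists from ATAC-seq, an assay in which the Tn5 transposase cuts DNA that is open enough to reach. They were chosen by symbol from the RefSeq table of GRCm38.p6, the assembly that mm10 names. The choice took protein-coding genes starting with Nduf, Uqcr, Atp5 or Cox4 to Cox8, and added Sdha, Sdhb, Sdhc, Sdhd, Cyc1 and Cycs. This gave 98 of the 21631 protein-coding genes on chromosomes 1 to 19 and X. The rule uses no measured value. Complex I is represented by 49 genes, complex II by 4, complex III by 9, complex IV by 18 and complex V by 17, and Cycs encodes the mobile carrier cytochrome c.

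The cells were Hepa-1c1c7, an established mouse hepatoma line, and all libraries come from this 1 line. They were treated for 72 h with potassium chromate, a hexavalent chromium salt, at 0.1, 0.5 or 1 µM, and untreated cells (0 µM) were the control, with 2 libraries for each of these groups. The deposited data are 3 lists of regions, 1 per treated dose, each named after its dose and the untreated cells. They held 14401 regions at 0.1 µM, 11130 at 0.5 µM and 15894 at 1 µM.

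The labels attach 1 list to both libraries of a dose, so the values carry no replicate error. Doses could not be tested against each other, and the number of reads behind a region is unknown. The sources used here do not state whether a listed region was more open than in untreated cells, and no list of untreated cells was used here. A region that is absent from a list is therefore not shown to be closed. All lists share the untreated libraries, so a gene found in several lists is not an independent repeat. The 1 µM libraries carry a different label prefix (N503) from all others (N502), which cannot be told apart from that dose.

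The respiratory chain sits in the inner mitochondrial membrane. Complexes I and II take electrons from NADH and succinate, complex III passes them through cytochrome c to complex IV, which reduces oxygen, and complex V, the ATP synthase, uses the resulting proton gradient to make ATP. Most subunits are encoded in the nucleus, and hepatocytes hold many mitochondria. The transcription factors NRF1 and GABP, an ETS family factor, and the factor YY1 are known regulators of many nuclear respiratory genes. Mitochondria-encoded subunits were not part of the gene set, and no list has a mitochondrial region.

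Most listed regions at ends of respiratory genes with a known strand lay at the start. Promoter sequences are therefore shown for 8 genes, all of which hold short recognition letters of known regulators. RefSeq promoter windows on GRCm38.p6, from 250 bases before to 50 after the annotated start, were at hand for 79 of the 98 genes. The stretches below, 5′ to 3′ on the gene's strand, end at the base just before the start and hold up to 150 bases, fewer where another gene begins. Capitals mark matches to the NRF1 letters GCGCANGCG or the ETS letters CCGGAAG on either strand. The first 6 genes had a region within 1 kb of the start in every list, Cox6a1 had one at 0.5 µM, and Cycs had none. The 8 are not typical, since most such stretches of the 79 genes hold no match. Among those without are Ndufaf5, Ndufa4, Ndufb2, Atp5b and Cox7c, each with a region at the start in every list. Another annotated start of Ndufa5, not printed, has none either.

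Atp5e (chr2:174464102-174464251, minus strand): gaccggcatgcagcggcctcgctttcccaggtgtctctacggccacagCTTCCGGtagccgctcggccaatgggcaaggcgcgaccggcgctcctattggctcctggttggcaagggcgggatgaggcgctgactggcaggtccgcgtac
Uqcrh (chr4:116075071-116075220, minus strand): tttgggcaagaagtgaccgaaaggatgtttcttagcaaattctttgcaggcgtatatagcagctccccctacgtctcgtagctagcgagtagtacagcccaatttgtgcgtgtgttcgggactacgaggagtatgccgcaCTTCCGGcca
Ndufa5 (chr6:24527691-24527840, minus strand): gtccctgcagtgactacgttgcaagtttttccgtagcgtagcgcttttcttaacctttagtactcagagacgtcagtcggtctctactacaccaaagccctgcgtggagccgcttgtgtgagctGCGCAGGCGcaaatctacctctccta
Ndufaf8 (chr11:120098881-120098933, plus strand): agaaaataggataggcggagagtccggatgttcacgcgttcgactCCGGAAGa
Ndufs6 (chr13:73328483-73328502, minus strand): ctgtgCGCCTGCGCcggcac
Ndufa11 (chr17:56717700-56717761, plus strand): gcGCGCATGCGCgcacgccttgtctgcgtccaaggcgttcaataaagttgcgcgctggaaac
Cox6a1 (chr5:115348959-115349108, minus strand): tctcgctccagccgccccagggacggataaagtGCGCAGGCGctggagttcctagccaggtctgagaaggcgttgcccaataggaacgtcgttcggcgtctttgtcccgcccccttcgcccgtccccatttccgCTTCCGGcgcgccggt
Cycs (chr6:50566570-50566642, minus strand): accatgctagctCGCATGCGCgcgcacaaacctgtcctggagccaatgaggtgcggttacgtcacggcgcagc

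In Ndufa11, whose regions end upstream of the printed stretch, the capitals are 2 overlapping NRF1 matches, at -60 to -52 and -59 to -51 from the start. In Ndufs6 the match lies at -15 to -7, and in Uqcrh the ETS match lies at -10 to -4. Cox6a1 held both kinds, NRF1 at -117 to -109 and ETS at -16 to -10. Cycs held an NRF1 match at -61 to -53, while its nearest listed regions lay 155, 107 and 1240 kb from a gene end in order of dose. A match in a sequence is a description of its letters and not a measurement of binding.

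Respiratory chain and ATP synthase genes held a listed region at a gene end more often than protein-coding genes in general, in each of the 3 lists. A gene end here is either annotated end of the gene, and a gene was counted where a region's midpoint lay within 1 kb of it. At 0.1 µM 36 of 98 genes (36.7%) met this, against 19.1% of all protein-coding genes. At 0.5 µM it was 35 (35.7%) against 18.4%, and at 1 µM 39 (39.8%) against 22.4%. The background includes genes that are silent in this line. In all, 49 of 98 genes had such a region in any list, against 26.3% of all genes, and 25 (25.5%) had one in every list, against 13.9%.

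**Figure D1:**
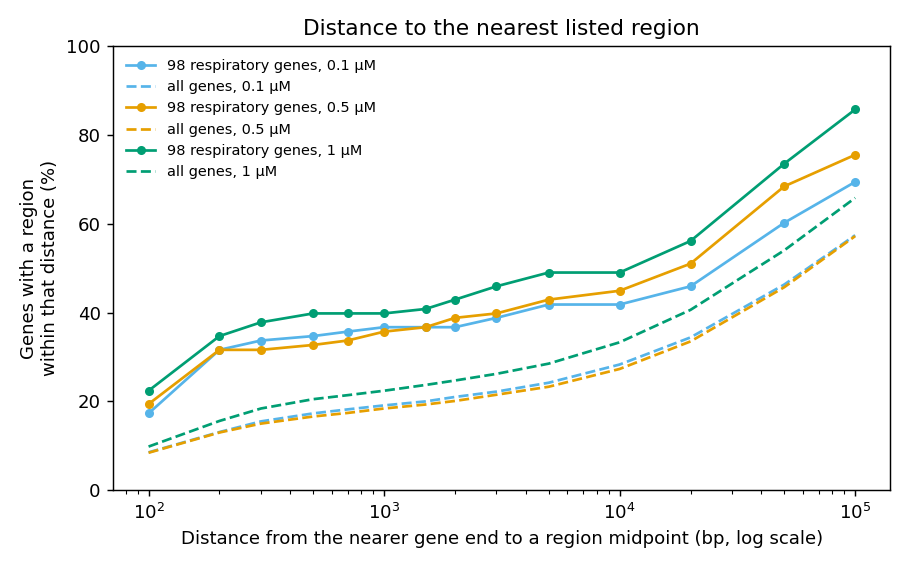
Share of genes (vertical axis, %) that have a region midpoint within the distance on the horizontal axis (bp, log scale) of the nearer gene end. Solid lines with points are the 98 respiratory genes and dashed lines all protein-coding genes, with 1 colour per list. The solid lines climb to between 31.6% and 34.7% within 200 bp and reach 36.7% to 42.9% at 2000 bp.

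Most of this share was reached very close to the gene end. Within 200 bp, 31.6%, 31.6% and 34.7% of the respiratory genes had a region midpoint in order of dose, against 13.1%, 13% and 15.6% of all genes. Widening the distance to 1500 bp brought 36.7%, 36.7% and 40.8%. In the gene body with 10 kb either side, 41, 44 and 48 of the 98 genes had a region (41.8%, 44.9% and 49.0%), against 31.6%, 30.1% and 36.7% of all genes. The respiratory genes are short, with a median length of 7154 bp against 17329 bp for all genes, so this wider window covers less sequence for them. Per Mb of that window they held 18.5 regions at both 0.1 and 0.5 µM, against 8.5 and 7.35 over all genes, and 22 against 10 at 1 µM. Those windows held 58, 58 and 69 regions for the 98 genes in order of dose, counted gene by gene. For all 21631 genes it was 12594, 10890 and 14858. Per gene these numbers are close, most so at 0.1 and 1 µM, so the density per Mb is not a like excess of regions per gene.

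Where the strand was known, the regions lay at the start of the gene. Of the respiratory genes with a promoter entry, 30, 28 and 32 had a region within 1 kb of a gene end in order of dose, and in 30, 27 and 32 of these it lay within 1 kb of an annotated start. The exception was Ndufb6 at 0.5 µM, whose only region lay beyond the other end of the gene, next to Smim27 and Topors. Over all genes with an entry, 94.2%, 93.8% and 93.8% of those with a region had it at a start. As shares of the 79 genes these were 38.0%, 34.2% and 40.5%, against 20.2%, 19.4% and 23.8% of all genes with an entry. The median midpoint lay at -59, -48 and -72 bp from the start, where negative is upstream, and 24 of 33, 25 of 27 and 28 of 33 such regions covered the start itself.

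**Figure D2:**
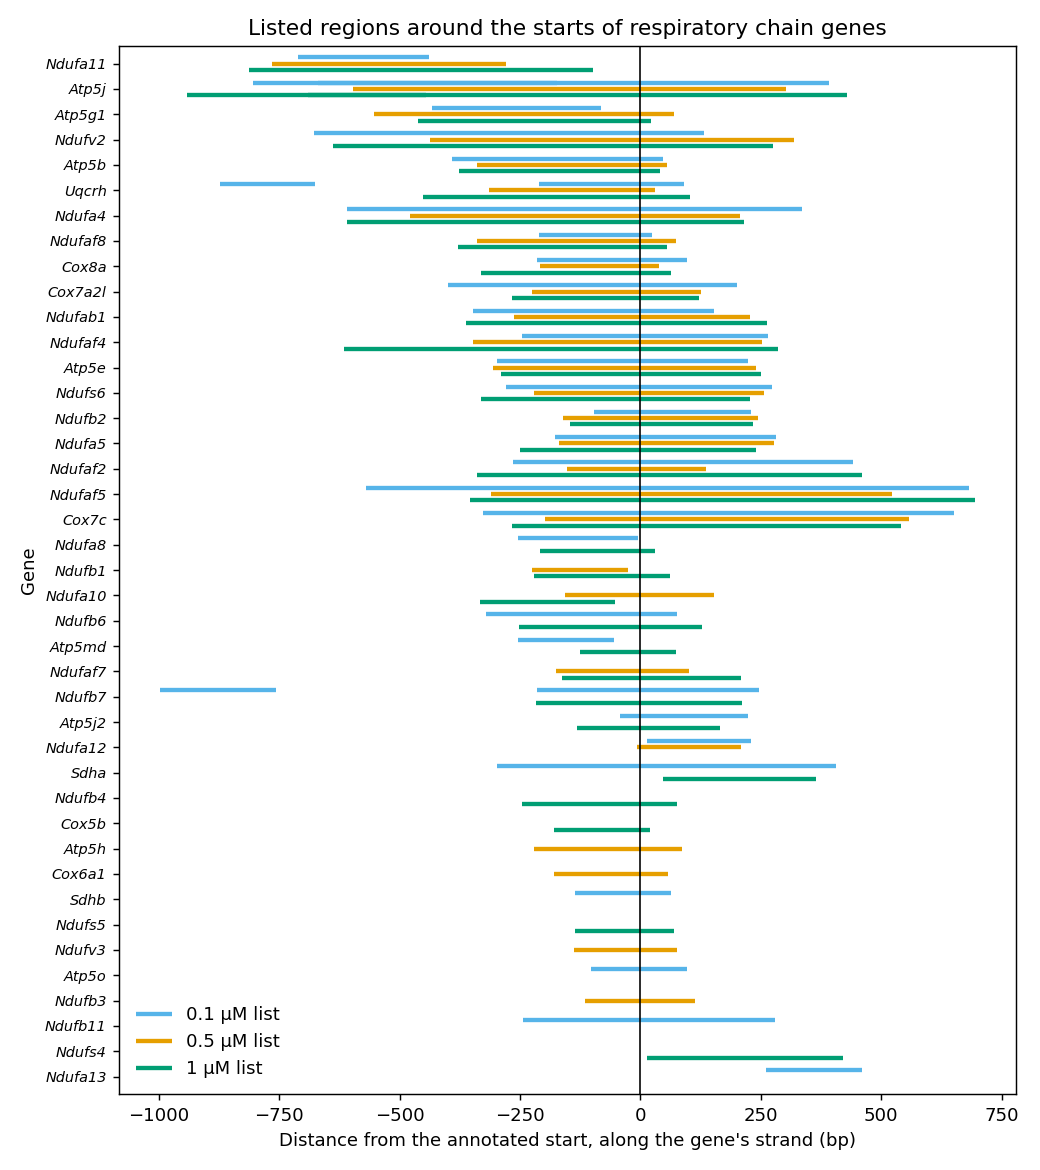
Listed regions as horizontal bars for the 41 respiratory genes with a known strand and a region midpoint within 1 kb of an annotated start. The horizontal axis is the distance from that start along the gene's strand (bp, negative is upstream), 1 colour per list, with genes in more lists at the top. Most bars cross 0, and those of Ndufa11 lie wholly upstream. For genes with more than 1 annotated start the nearest one was used.

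Many respiratory genes have a close neighbour. Another protein-coding gene had an end within 1 kb of an end of 55 of the 98 genes (56.1%), against 25.1% of all genes. Of these 55, 25, 25 and 26 had a region within 1 kb in order of dose (45.5%, 45.5% and 47.3%), against 26.5%, 27.6% and 33.1% of all genes with such a neighbour. Of the 43 without one it was 11, 10 and 13 (25.6%, 23.3% and 30.2%), against 16.6%, 15.3% and 18.9%. Among the 79 with an entry, 22 (27.8%) had a start of another gene on the opposite strand within 1 kb upstream, against 8.59% of all genes with an entry. In this divergent arrangement 12, 11 and 12 of the 22 had a region at the start in order of dose (54.5%, 50% and 54.5%), against 42.8%, 42.5% and 51.4% of all divergent genes. Of the other 57, 18, 16 and 20 had one (31.6%, 28.1% and 35.1%), against 18.1%, 17.3% and 21.2% of all other genes.

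A region between 2 neighbours cannot be assigned to 1 of them. Of the regions at respiratory gene ends, 22 of 40, 23 of 36 and 23 of 42 lay within 1 kb of another protein-coding gene's end (55.0%, 63.9% and 54.8%), against 14.8%, 16.8% and 15.9% of all gene end regions. Counting only regions near a single gene left 17, 13 and 19 of the 98 genes (17.3%, 13.3% and 19.4%), beside 14.2%, 13.2% and 16.4% of all genes. At 0.5 µM the share of the respiratory genes was then at the background.

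Their promoters were also rich in CpG, a feature of many broadly expressed genes. A CpG-rich window, with GC of at least 50% and a ratio of observed to expected CpG of at least 0.6, was present in 60 of the 79 genes (75.9%) against 48.9% of all genes with an entry. Among CpG-rich genes, 23, 25 and 26 of the 60 respiratory genes were counted in order of dose (38.3%, 41.7% and 43.3%), against 30.4%, 29.7% and 35.8% of all CpG-rich genes. Among the 19 without such a window it was 7, 3 and 6 (36.8%, 15.8% and 31.6%), against 8.60%, 8.14% and 10.3%. Within CpG-rich genes the differences from the background were smaller than over the whole gene set. The part that neighbours and CpG content have in the counts was not tested further.

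The complexes differed in how many of their genes had a region, as the bar plot by complex shows. Complex I had 20, 20 and 23 of 49 genes in order of dose (40.8%, 40.8% and 46.9%). Complex II had 2, 1 and 1 of 4, complex III 3, 4 and 4 of 9 (33.3%, 44.4% and 44.4%), and complex V 8, 6 and 7 of 17 (47.1%, 35.3% and 41.2%). Complex IV had 3, 4 and 4 of 18 (16.7%, 22.2% and 22.2%), close to the share of all genes. These 18 include 7 isoforms known from particular tissues, with 0 counted in each list. Of its 10 genes of broadly expressed subunits, 2, 3 and 3 were counted in order of dose. In any list it was 4 of these 10 (40.0%), against 26.3% of all genes. With 4 to 49 genes per complex and no replicate lists, the differences were not tested.

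**Figure D3:**
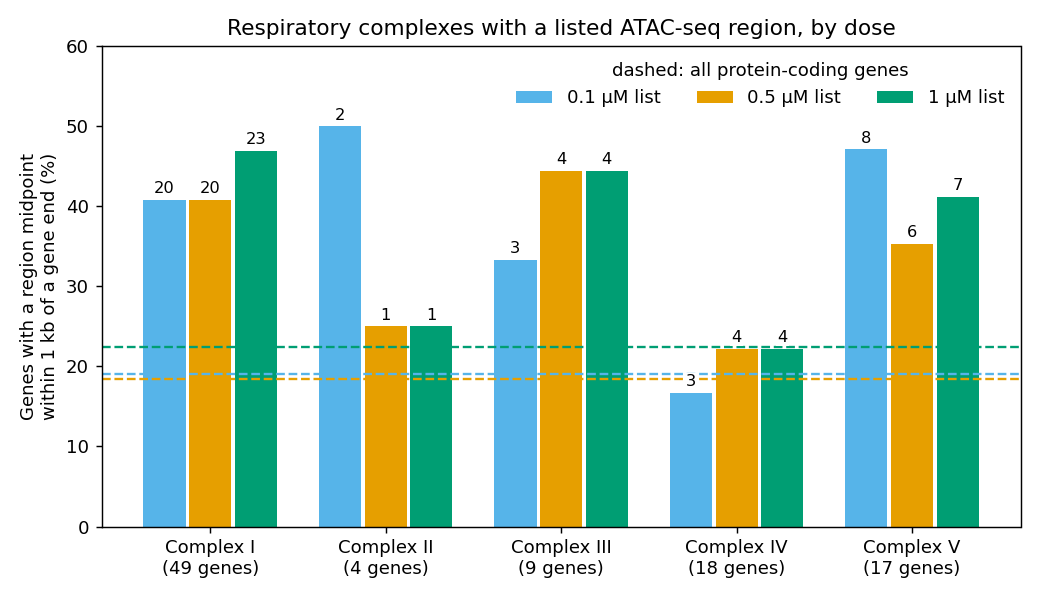
Bars give the share of each complex's genes (vertical axis, %) with a region midpoint within 1 kb of a gene end, 1 bar per list, and the number above each bar is the count of genes. Dashed lines are the share of all protein-coding genes in the list of the same colour. Complex IV, at 16.7% to 22.2%, lies near the dashed lines at 18.4% to 22.4%, and complex I lies above them in each list. The 18 genes of complex IV include 7 isoforms known from particular tissues, with 0 counted in each list.

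In complex I, the NADH dehydrogenase, 28 of 49 genes (57.1%) had a region in any list and 14 (28.6%) in every list, against 26.3% and 13.9% of all genes. Among its nuclear core subunits, which carry the redox centres, Ndufs1 and Ndufv2 had one in every list, while Ndufs3, Ndufs7, Ndufs8 and Ndufv1 had none within 1 kb. Ndufs1, the largest core subunit, scored 10, 9 and 16, with its region at chr1:63176463-63177346 at 1 µM. The score is the authors' whole number per region, of at least 4 and with a median of 11, 10 and 13 in the lists. With a scale not given in the sources used here, scores are described within a list and not read as dose differences. Ndufv2, an iron-sulphur subunit of the NADH-binding module, had 18, 9 and 29 (chr17:66101284-66102197 at 1 µM). The region of Ndufs1 also lies at an end of Eef1b2, a translation elongation factor gene.

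Among the 30 accessory subunits of complex I, 13, 12 and 15 had a region in order of dose, 20 in any list and 7 in every list. The shares of all genes were 19.1%, 18.4% and 22.4%, with 26.3% in any and 13.9% in every list. Ndufb6 had the highest score of those 7 at 0.1 and 1 µM, with 28, 13 and 51, from a region beyond its other end (chr4:40269599-40270012 at 1 µM). A second one at its start scored 11 and 14 at 0.1 and 1 µM. Ndufa5 had 23, 25 and 43 (chr6:24527450-24527940), next to Asb15, and Ndufs6 had 24, 18 and 43 (chr13:73328255-73328813), next to the mitochondrial ribosomal protein gene Mrpl36. Ndufab1, the mitochondrial acyl carrier protein, had 19, 12 and 22 (chr7:122101586-122102210), with no other gene's end within 1 kb. These subunits surround the core of the enzyme. The remaining genes of the 7 were Ndufb2 (15, 18 and 11, chr6:39592419-39592799), Ndufa11 (7, 9 and 24, chr17:56716950-56717664) and Ndufa2 (8, 6 and 10, chr18:36744424-36744769). The scores of the 7 ran from percentile 13.8 of a list, for Ndufa2 at 0.5 µM, to 92.9, for Ndufb6 at 1 µM.

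**Figure D4:**
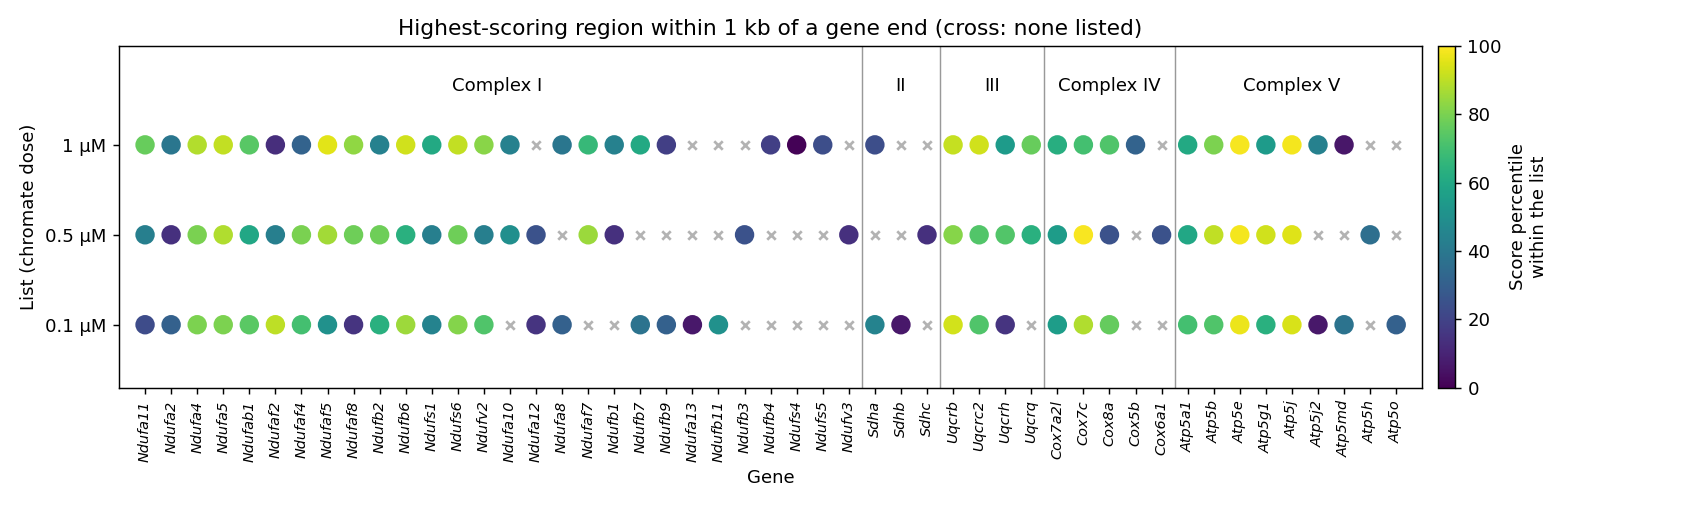
Each column is 1 of the 49 genes with a region in any list, grouped by complex, and each row is 1 list. Dots are coloured by the score percentile, within its list, of the highest-scoring region within 1 kb of a gene end, and crosses mark lists with none. Genes with 3 dots hold most of the bright dots, such as those of Atp5e and Atp5j, while genes with 1 dot have scores of 4 to 11.

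Accessory subunits listed at some doses had scores of 4 to 16. Ndufa10 (10 and 11) and Ndufb1 (6 and 11) were listed at 0.5 and 1 µM. Ndufa8 (8 and 10), Ndufb7 (9 and 16) and Ndufb9 (8 and 7) were listed at 0.1 and 1 µM, and Ndufa12 (6 and 7) at 0.1 and 0.5 µM. Ndufa13 (5) and Ndufb11 (11) were listed only at 0.1 µM, Ndufb3 (7) and Ndufv3 (6) only at 0.5 µM, and Ndufs4 (4), Ndufs5 (8) and Ndufb4 (7) only at 1 µM. At 1 µM these regions lay at chr1:92473811-92474090 (Ndufa10), chr12:101975678-101975959 (Ndufb1), chr2:36049308-36049547 (Ndufa8), chr8:83566542-83566969 (Ndufb7), chr15:58933554-58933908 (Ndufb9), chr13:114387673-114388079 (Ndufs4), chr4:123718117-123718321 (Ndufs5) and chr16:37654293-37654613 (Ndufb4). Those of Ndufa12 (chr10:94199029-94199243), Ndufb3 (chr1:58586282-58586510) and Ndufv3 (chr17:31519978-31520190) are given from 0.5 µM, and those of Ndufa13 (chr8:69901561-69901759) and Ndufb11 (chrX:20617340-20617862) from 0.1 µM. Many of these scores are near the lowest in the lists, which is 4, and presence at 1 dose and absence at another were not tested as a difference.

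Assembly factors of complex I, which help build the enzyme without staying in it, had a region in 4, 5 and 5 of 8 cases. Over all genes the shares were 19.1%, 18.4% and 22.4% in order of dose. Ndufaf5 scored 11, 23 and 65 (chr2:140170293-140171341 at 1 µM), at an end shared with Esf1. Ndufaf4 scored 17, 19 and 9 (chr4:24897469-24898368), and Ndufaf8 6, 18 and 30 (chr11:120098556-120098989), next to Tepsin. Ndufaf2 scored 36, 9 and 6 (chr13:108158165-108158964), next to the repair gene Ercc8, and Ndufaf7 22 and 19 at 0.5 and 1 µM (chr17:78936972-78937344), next to Cebpz. Ndufaf1, Ndufaf3 and Ndufaf6 had none. Ndufa4, named for complex I and later placed in complex IV, scored 23, 19 and 38 (chr6:11907235-11908058), next to Phf14.

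In complex II, succinate dehydrogenase, 0 of 4 genes had a region within 1 kb in every list, against 13.9% of all genes. Sdha, the flavoprotein, had one at 0.1 and 1 µM with scores of 10 and 8 (chr13:74349877-74350194 at 1 µM), at an end near Ccdc127. Sdhb, the iron-sulphur subunit, had one of 199 bp at 0.1 µM only (score 5, chr4:140961135-140961333). The membrane anchor gene Sdhc had one at 0.5 µM only (score 6). Sdhd, the other anchor, had none in the gene body or within 10 kb.

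In complex III, the cytochrome bc1 complex, 3 of 9 genes (33.3%) had a region in every list, against 13.9% of all genes. Uqcrb, a small subunit, scored 45, 20 and 44 (chr13:66904858-66905565 at 1 µM, near Gm10767), Uqcrc2, a core protein, 18, 16 and 49 (chr7:120634736-120635729), and the hinge protein gene Uqcrh 6, 16 and 14 (chr4:116074968-116075521, near Lrrc41). Uqcrq was listed at 0.5 and 1 µM (13 and 24, chr11:53430785-53431233 at 1 µM), at an end near Gdf9. Neither gene of the redox subunits had a region in the gene body or within 10 kb, these being Cyc1 for cytochrome c1 and Uqcrfs1 for the Rieske protein. The same held for Uqcrc1, Uqcr10 and Uqcr11.

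In complex IV, cytochrome c oxidase, 5 of 18 genes (27.8%) had a region in any list, about the 26.3% of all genes. Of 10 genes of broadly expressed subunits 4 had one in any list and 6 had none. Cox7c scored 32, 76 and 20 (chr13:86046254-86047062 at 1 µM), and Cox8a 21, 7 and 21 (chr19:7217552-7217946). Cox6a1 was listed only at 0.5 µM (7, chr5:115348901-115349137) and Cox5b only at 1 µM (9, chr1:36691309-36691507). Cox7a2l, which encodes a factor that joins complexes III and IV into supercomplexes, scored 12, 11 and 17 (chr17:83514211-83514599).

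The 7 isoforms that are known from particular tissues, Cox4i2, Cox6a2, Cox6b2, Cox7a1, Cox7b2, Cox8b and Cox8c, had 0 regions within 1 kb of a gene end in each list. They are known from lung, heart and skeletal muscle or testis. Cox4i2 had a region 1587 and 2896 bp from a gene end at 0.5 and 1 µM. The division into broad and tissue-restricted isoforms rests on textbook knowledge and was made with the lists known. With so few genes, and 26.3% of all genes in any list, nothing is read from this division.

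In complex V, the F1 head and central stalk had Atp5a1, Atp5b and Atp5e in every list, while Atp5c1 and Atp5d had no region within 1 kb in any. Atp5e, the epsilon subunit, had the highest score of all respiratory genes at 0.1 and 1 µM, with 66, 59 and 111 in order of dose. Its region (chr2:174463852-174464391 at 1 µM) spans the start and ranked at percentiles 97.1, 98.1 and 98.5 of the lists, at an end shared with Prelid3b, which encodes a mitochondrial lipid transfer protein. Atp5b, the catalytic beta subunit, scored 18, 28 and 27 (chr10:128082931-128083348), and Atp5a1, the alpha subunit, 17, 12 and 16 (chr18:77773521-77774196), near Haus1.

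Of the 3 genes of the c-ring, the membrane rotor, Atp5g1 was in every list (15, 33 and 14, chr11:96075609-96076092 at 1 µM). Atp5g2 had regions 2797 to 2855 bp from a gene end in every list, and Atp5g3 had none within 10 kb. In the peripheral stalk Atp5j, coupling factor 6, scored 48, 40 and 106 (chr16:84834547-84835917). That region of 1371 bp lies at an end of both Atp5j and Gabpa, the gene of the DNA-binding subunit of GABP, and the same scores therefore belong to both genes. Atp5o was listed only at 0.1 µM (8, chr16:91931534-91931732) and Atp5h only at 0.5 µM (8, chr11:115419833-115420139). Both encode stalk subunits. Of the small membrane subunits Atp5j2 (5 and 11, chr5:145191376-145191673 at 1 µM) and Atp5md (9 and 5, chr19:47090573-47090771) were listed at 0.1 and 1 µM, and Atp5k, Atp5l and Atp5mpl had none.

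Genes found in more lists had higher scores and wider regions. No list holds a score below 4, so a gene with a low score is the more likely to be missing from a list. How far the pattern follows from that floor was not tested. The medians pool 13, 22 and 75 values for genes in 1, 2 and 3 lists, with 1 value per gene and list. The 13 genes found in 1 list had scores of 4 to 11 (median 7) and a median width of 229 bp. The 11 genes in a pair of lists had scores of 5 to 24 (median 9.5), and the 25 in every list 6 to 111 (median 18), with a median width of 515 bp. Those in 1 list comprised 4 genes at 0.1 µM, 5 at 0.5 µM and 4 at 1 µM. The median score of all regions at respiratory gene ends was 11, 12.5 and 16 in order of dose, beside 12, 11 and 15 for all gene end regions.

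A further 11 genes had a region only farther off, in the gene body or within 10 kb of it. Among them Ndufa6, Atp5g2 and Cox7b had one in every list, at 2797 to 4106 bp from a gene end. Cox4i2 was found in a pair of lists and Atp5pb, Atp5d, Ndufb10, Ndufs8, Ndufv1 and Ndufb8 in 1. The remaining 38 genes had no region in this window in any list. They comprise 15 of complex I, Sdhd, 5 of complex III, 11 of complex IV, 5 of complex V and Cycs. Those of complex I are Ndufs3, Ndufs7, Ndufa1, Ndufa3, Ndufa7, Ndufa9, Ndufb5, Ndufc1, Ndufc2, Ndufaf1, Ndufaf3, Ndufaf6 and the paralogs or copies Ndufa4l2, Ndufb4b and Ndufb4c. In complex IV the broadly expressed Cox4i1, Cox5a, Cox6b1, Cox6c and Cox7a2 were among them, with 6 of the tissue-restricted isoforms, and in complex V they were Atp5c1, Atp5g3, Atp5k, Atp5l and Atp5mpl.

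The counts were uneven over chromosomes. Chromosome 15 is dense in listed regions, and in order of dose 29.0%, 30.2% and 32.3% of its genes were counted. Of its 6 respiratory genes 1, 0 and 1 were, Ndufb9 each time, and Atp5g2, Cox6c, Cyc1, Ndufa6 and Ndufb4c were not. On chromosome 13 a region was found for 5, 4 and 6 of 7 genes, against 24.8%, 20.7% and 26.9% of its genes. None of the 6 genes on chromosome 9 had one, where 10.9%, 9.16% and 14.7% of all genes did.

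Promoter windows of the respiratory genes held letters of NRF1, ETS factors and YY1 more often than all windows, as the bar plot of motifs shows. An NRF1 match was present in 23 of 79 genes (29.1%) against 9.73% of all 17274 genes with an entry, and 18.4% of the CpG-rich ones. For ETS it was 19 (24.1%) against 13.1% and 21.4%, and for YY1, searched as AANATGGCG, 11 (13.9%) against 3.67% and 6.33%. Within CpG-rich genes, 36.7% of the 60 respiratory genes held NRF1 letters, 23.3% ETS letters and 13.3% YY1 letters. The share with ETS letters was thus near that of other CpG-rich genes. All windows are 300 bases long, both strands were searched, and NRF1 matches can overlap each other.

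**Figure D5:**
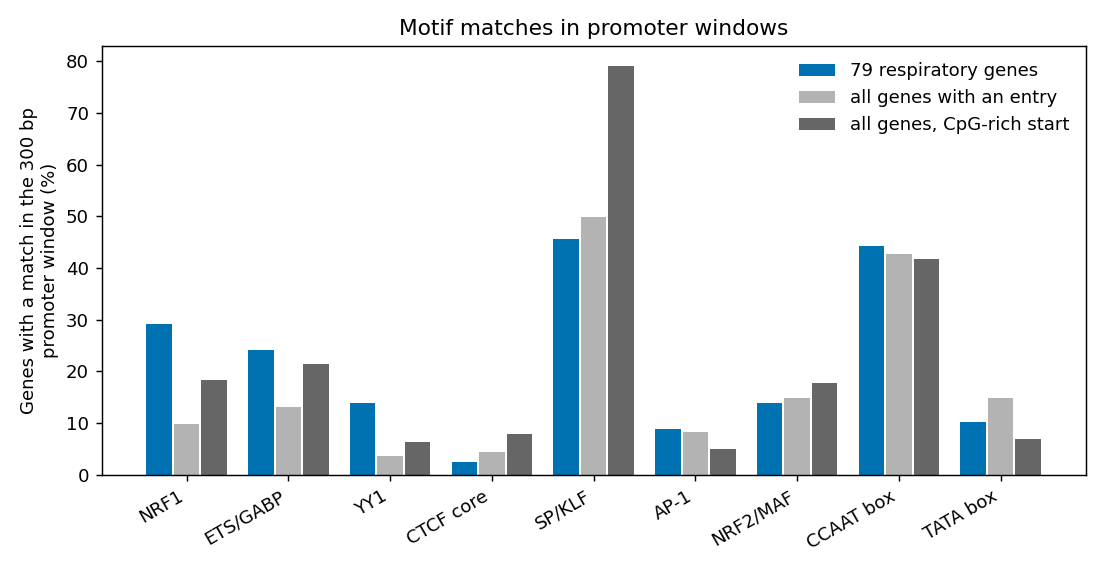
Share of genes (vertical axis, %) whose 300 bp promoter window holds a match to each motif (horizontal axis). Blue bars are the 79 respiratory genes with an entry, light grey bars all genes with an entry and dark grey bars those with a CpG-rich start. NRF1, at 29.1%, and YY1, at 13.9%, stand above both grey bars, and the SP/KLF bar stands below both.

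The shares with NRF1 letters were close between genes with and without a region. These letters were present in 12 of the 41 respiratory genes with a region at the start in any list (29.3%) and in 11 of the 38 without (28.9%). ETS letters were present in 11 (26.8%) and 8 (21.1%), and YY1 letters in 7 (17.1%) and 4 (10.5%). The core letters of the insulator protein CTCF, AGNGGGCGC, were in 0 of the 41 and in 2 of the 38, Cycs and Ndufc1, against 4.38% of all genes. AP-1 letters (TGANTCA) were in 7 of 79 genes (8.86%) against 8.19%, and NRF2 and MAF letters (TGACNNNGC) in 11 (13.9%) against 14.9%. SP and KLF letters (GGGCGG) were in 36 (45.6%) against 49.8%, CCAAT in 35 (44.3%) against 42.7%, and TATAAA in 8 (10.1%) against 14.9%. CCAAT boxes and SP sites are common in promoters. Among CpG-rich genes 53.3% of the respiratory genes held SP and KLF letters, against 79% of all.

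Further genes of the pathway were counted in the same way. Of 46 other assembly factors, 23, 19 and 27 had such a region in order of dose (50%, 41.3% and 58.7%), 17 of them in every list. The shares of all genes were 19.1%, 18.4% and 22.4% in order of dose, and 13.9% in every list. Tmem126b, a complex I assembly factor, had the highest scores of these at 0.1, 0.5 and 1 µM with 74, 53 and 90. Pet117 scored 9, 27 and 65, the copper protein gene Cox11 31, 9 and 38, and Tmem70, which takes part in assembly of the ATP synthase, 21, 23 and 12. The others in every list were Coa5, Coa6, Bcs1l, Cox18, Cox20, Dmac1, Atpaf1, Sdhaf3, Pet100, Cmc1, Cmc2, Timmdc1 and Lrpprc.

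Regulators of respiratory genes and of mitochondrial DNA had a region in 9, 10 and 9 of 23 cases (39.1%, 43.5% and 39.1%), against 19.1%, 18.4% and 22.4% of all genes. Those in every list were Tfam, which packages mitochondrial DNA (14, 7 and 14), the mitochondrial transcription factor genes Tfb1m (64, 107 and 270) and Tfb2m (14, 33 and 36), Gabpa (48, 40 and 106), Yy1 (18, 7 and 18), Mterf3, Polg2 and Ssbp1. Nrf1 itself and the coactivator gene Ppargc1a had none within 1 kb. Genes of pyruvate dehydrogenase and the citrate cycle had one in 8, 4 and 6 of 17 cases (47.1%, 23.5% and 35.3%), with Fh1, fumarase (192, 24 and 73), Pdhb (17, 17 and 40) and Mdh2 (9, 12 and 12) in every list. The share of all genes was 19.1%, 18.4% and 22.4%, and at 0.5 µM the 4 of 17 genes were near it.

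Markers of cell types were counted too. Of 12 hepatocyte and hepatoma markers 2 (16.7%), Foxa2 and Nr1h4, had a region midpoint within 1 kb of a gene end in each list. The shares of all genes were 19.1%, 18.4% and 22.4%, so the counts do not check the cell type. In each list, 3 markers had a region that reached into that window. No other gene of the 12 had a midpoint there, among them Alb, Afp, Ttr and Hnf4a. Sox9, listed among 3 bile duct markers, had one in each list. Of the markers of immune cells (4), endothelium (3), stellate cells and fibroblasts (3) and muscle (4), 0 had one. In the gene body with 10 kb either side, 2, 2 and 3 of the 4 immune markers had one in order of dose. The stellate cell and fibroblast markers had one in 1, 2 and 2 of 3 cases, and those of bile duct in 1, 1 and 1 of 3. For endothelium it was 0, 0 and 1 of 3, and for muscle 0 of 4 in each list. For the hepatocyte and hepatoma markers it was 4, 3 and 5 of 12, against 31.6%, 30.1% and 36.7% of all genes.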

How the data were processed

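ATAC-seq was run on 8 libraries of Hepa-1c1c7 cells, with nuclei transposed for 30 minutes and 9 PCR cycles, per the labels' protocols. The deposited lists give a position and a score per region, which takes whole values from 4 upward on a scale that no source used here states. Per the submitters' processing notes the tools were Bowtie2, Picard and MACS2 and the build mm10, with no role or version. Whether and how the libraries of a dose were combined, the calling threshold and any read shift were not given in the sources used here. About 75 M paired-end reads are stated in the labels, without saying whether per library, and the lists hold no read counts. BED starts were made 1-based.

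Python 3.11.15 with pandas 2.3.3 placed a region by its midpoint, within 1 kb of either gene end or in the gene body with 10 kb either side. The counting was tested on simulated data. The background was all 21631 protein-coding genes. No significance test was run, since each dose has 1 list. Every gene with a region within 1 kb in any list was named, as were, with an exception that is not reported here, those with one only in the wider window, and members of other lists found at every dose. Coordinates are given from 1 list for nearly all genes. Alternatives changed the distance, the placement, the regions and the genes counted. The members and lists were chosen with earlier results of these data known, and the roles of subunits were assigned by hand. Of 47 further assembly factors 46 matched the gene table.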

Additional observations from a re-analysis of the deposited data

How the results depend on the processing

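No paired analysis was possible because each dose has a single list and no values per library, and for the same reason no library could be left out. Counts stayed within 1.5 times the reported ones with overlap by at least 1 bp, distances of 500 bp or 2.5 kb, flanks of 5 or 20 kb, structural subunits only and without chromosome 15. Shares can move more than counts where fewer genes are counted. With structural subunits only, complex IV had 4 of 10 genes in any list (40.0%), beside 5 of 18 (27.8%) in the main setting.

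Stricter lists lowered the counts for respiratory genes and for all genes. In the 50% of each list with the higher score, 21, 22 and 24 genes had a region within 1 kb in order of dose (21.4%, 22.4% and 24.5%, against 11.8%, 11.6% and 13.6% of all genes). In the gene body with 10 kb it was 26 at 0.1 µM and 31 at 1 µM (26.5% and 31.6%, against 20.4% and 23.4% of all genes), and 15 genes had a region within 1 kb in every list. In any list complex I then had 17 genes, complex II 0, complex IV 3 and complex V 5. In the wider 50% of each list, 23 genes had a region within 1 kb at 0.1 µM and 20 at 0.5 µM (23.5% and 20.4%, against 13% and 11.9% of all genes). It was 29 in the gene body with 10 kb at 0.5 µM (29.6%, against 19.2%), and 16 within 1 kb in every list. In any list complex I then had 18 genes, complex II 1, complex IV 3 and complex V 5. For the counts in every list and per complex, no share of all genes in these stricter lists was worked out. They are therefore not read against the background.

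With annotated starts only, which 5 genes of complex III have, that complex had 1 gene with a region. Restrictions chosen after seeing the data gave 17, 13 and 19 genes with regions near a single gene (all genes 14.2%, 13.2% and 16.4%), and 23 of 60 CpG-rich genes at 0.1 µM. Complex II has 4 genes, so 1 weak region moves its share by a large step. Each of these settings counts fewer regions or genes, and the cause of the changes was not tested.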
